A study of Danio rerio with 8 samples.

Results

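Zebrafish larvae exposed to zinc oxide nanoparticles (ZnO NPs) were compared with larvae exposed to dissolved zinc sulfate (ZnSO4). The aim was to set particles against ions at zinc concentrations that were near-equal by the study's estimates. The 6 arrays of these groups, of the 8 in the series, were chosen by their labels: 3 for ZnO NPs, dosed at 2.64 mg/L, and 3 for ZnSO4, dosed at 7.75 mg/L, each dose being the one lethal to 25% of the animals (LC25). Both groups were exposed as embryos and collected at 96 hours post fertilization, and each array held the Cy3-labelled RNA of a pool of whole larvae. The other 2 arrays, of unexposed larvae of the same age, entered only the estimate of spread and are given as the reference level. The strain is not given in the sources used here. The whole body was measured, so fewer cells of a type and less RNA per cell cannot be told apart, and no tissue could be examined separately.

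Both treatments bring zinc ions to the animal, because ZnO NPs dissolve in part in water. Inside cells, free zinc is sensed by the transcription factor MTF1, which switches on metallothionein genes, whose small cysteine-rich products bind the metal. Transporters of the SLC30 family move zinc out of the cytoplasm, and those of the SLC39 family bring it in. The comparison asks which transcripts, if any, differ between particles and the dissolved salt at the LC25 doses. These were set by lethality, and their zinc is near-equal by the study's estimates rather than matched by design. The study gives wide confidence intervals for these estimates, above all for ZnO NPs.

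Between 77.5% and 85.8% of the probes were well above background on an array, with no saturated spot. Of 43603 probes, 34133 (78.3%) were well above background on all arrays of at least 1 of the 2 groups, and 34132 of these could be tested. They included 22872 probes with a gene symbol, for 12027 genes. Signals are printed on a linear scale on which the 75th percentile of every array is 1160, so they compare samples for a probe but not probes with each other. Differences are ZnO NPs minus ZnSO4 on the log2 scale, with the standard error (SE) or 95% interval from limma. By the positions in the file headers, ZnO NP replicates 1 and 2 shared 1 side of the slide with the control, and ZnO NP replicate 3 shared the other side with all ZnSO4 arrays. The side is therefore not balanced over the groups, and its part in the results was not tested.

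Most genes differed little between the 2 forms of zinc. The median difference over the tested probes was 0.01, the median size of the difference was 0.08, or 1.06-fold, and 98% of all differences lay between -0.51 and 0.49. For 83.7% of the probes (28580) the 95% interval lay within 1.5-fold in both directions, and for 96.5% (32940) within 2-fold.

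No probe reached a fold change of 1.5 together with an adjusted p under 0.05 in limma (0 of 34132, 0%, with 1335 higher and 610 lower at an unadjusted p under 0.05). The smallest adjusted p was 0.733 in this fit, in which the control arrays enter the spread. With the 6 exposed arrays alone it was 0.182 in limma, and 2750 probes had an unadjusted p under 0.05, against 1945. Unadjusted p values from limma with the control arrays are given for the genes below, as a description of where the arrays differ most. A fold of at least 1.5 together with an unadjusted p under 0.05 was reached by 179 probes (0.524%), with 90 higher in ZnO NPs (0.264%) and 89 lower (0.261%). Only 98 of the 179 were well above background on all 6 arrays, and the rest entered the tested probes through 1 group alone. The share of higher probes among the 179, 50.3%, depended on the setting. It was 34.1% after quantile normalization, 39.8% after a median shift and 23.1% with normexp background correction. It was 67.6% without ZnO NP replicate 3, 65.5% without ZnO NP replicate 1 and 29.3% without ZnSO4 replicate 3. Without the fold threshold, 1945 probes (5.70%) had such a p, 1335 of them higher (3.91%) and 610 lower (1.79%). The 3 arrays of one group did not overlap with the 3 of the other for 4925 probes (14.4%), of which 3038 were higher in ZnO NPs (8.90%) and 1887 lower (5.53%). Irrespective of any test, 388 probes (1.14%) differed by 1.5-fold or more.

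The differences were concentrated among dim probes. When the probes were ordered by mean signal and divided into 4 equal groups, 151 of the 179 lay in the dimmest group and 11, 10 and 7 in the others. The share of probes with an interval within 1.5-fold rose from 60.1% in the dimmest group through 86.3% and 93.8% to 94.7% in the brightest. The array pairs showed the same scale of variation: the SD of the log2 difference between 2 arrays was 0.245 to 0.284 within ZnO NPs, 0.231 to 0.242 within ZnSO4 and 0.227 to 0.334 between the groups.

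**Figure D1:**
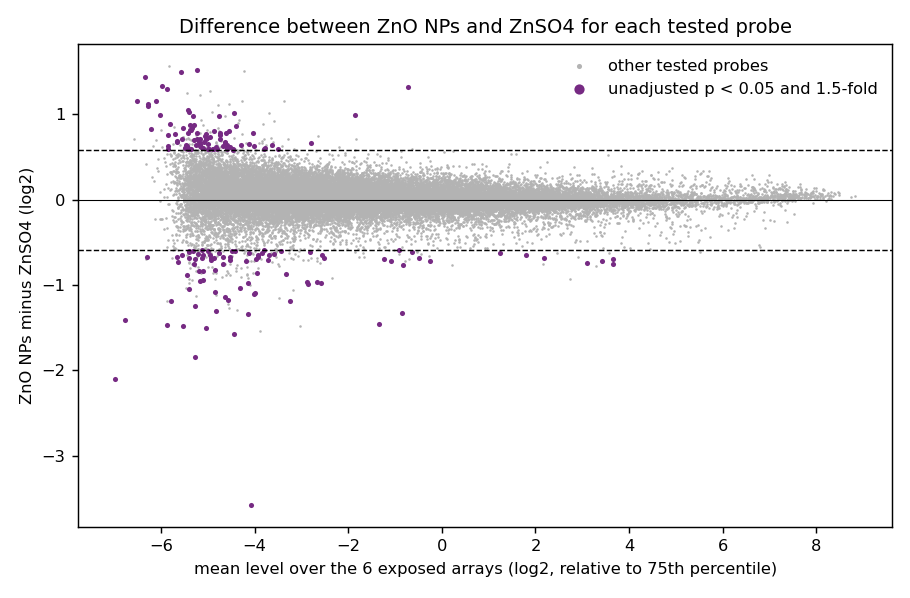
Difference between ZnO NPs and ZnSO4 (log2, vertical axis) against the mean level of each tested probe (log2 signal relative to the 75th percentile of the array, horizontal axis), with the 179 probes past 1.5-fold and the unadjusted p marked in purple and dashed lines at 1.5-fold. Most of the marked probes lie at the dim end, and the cloud narrows around 0 as the signal rises.

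Zinc handling genes were at nearly the same level in both groups. Of 22 genes listed (metallothioneins, mtf1 and both families of zinc transporters), 16 were on the array with a symbol and 15 were tested. None had an unadjusted p under 0.05, against 4.22% of all tested genes, and in none were the groups apart without overlap, against 7.10% of all tested genes on the higher and 6.77% on the lower side. Their median difference was -0.03, against -0.01 over all tested genes, and 13 of the 15 (86.7%) had an interval within 1.5-fold, against 88.5%.

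The metallothionein gene mt2, whose product binds zinc, was measured by 3 probes. The brightest read 25555, 32948 and 45009.5 in ZnO NPs and 36804, 34804 and 37946 in ZnSO4, against 20098 and 16093 in the control. Every exposed array was thus above both control arrays, and the 2 exposed groups overlapped. The difference between ZnO NPs and ZnSO4 was -0.12 (95% interval -0.57 to 0.33, adjusted p = 0.917, limma), while the groups lay 0.90 and 1.02 above the control. The other probes gave -0.24 and -0.14. On all 3 probes ZnO NP replicate 1 was the lowest exposed array and replicate 3 the highest, and without replicate 1 the differences were 0.078, 0.054 and 0.073. The sign of the mt2 difference thus turned on 1 array, while the interval of the brightest probe lay within 1.5-fold on both sides.

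Of the regulators and transporters, mtf1 itself read 2076, 2139.6 and 2365 in ZnO NPs and 2003, 2338 and 1975 in ZnSO4, a difference of 0.06 (-0.17 to 0.29). The exporter gene slc30a1b had the lowest p of the list. Its arrays read 46.6, 66.8 and 43.1 in ZnO NPs and 64.1, 57.6 and 64.4 in ZnSO4, which overlapped, with a difference of -0.28 (-0.65 to 0.10, unadjusted p = 0.128, limma). The remaining transporters ranged from -0.28 (slc39a9, an importer) to 0.10 (slc30a4, which loads zinc into vesicles).

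**Figure D2:**
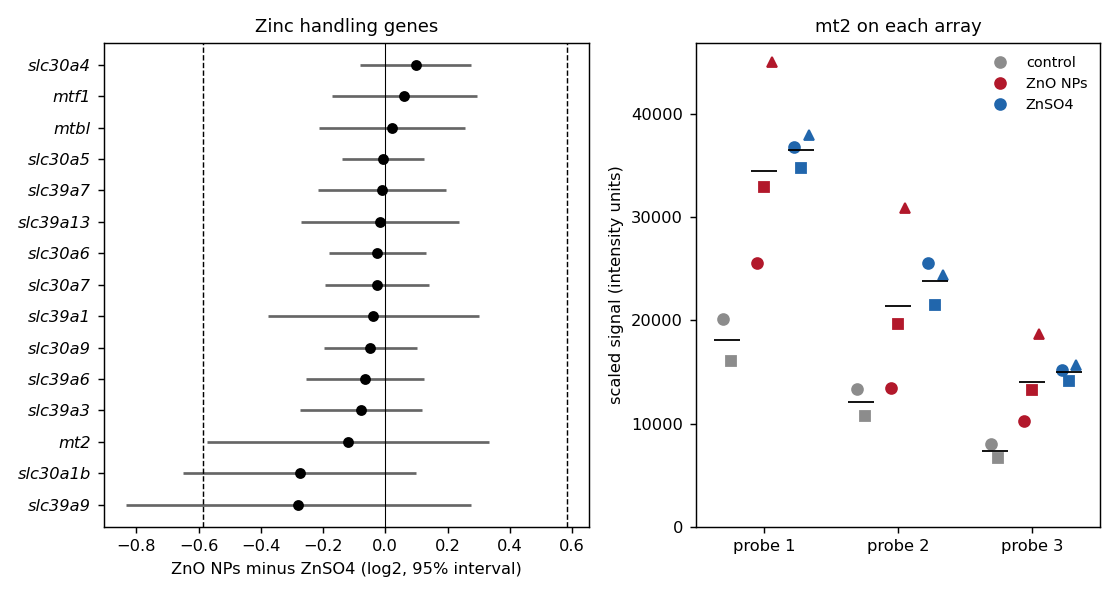
Left, difference between ZnO NPs and ZnSO4 (log2, with 95% intervals, dashed lines at 1.5-fold) for each tested zinc handling gene, 1 probe per gene. Right, signal of the 3 mt2 probes on each array (circle, square and triangle for replicates 1, 2 and 3, lines for group means). All intervals include 0, and on the first mt2 probe the exposed arrays lie between 25555 and 45009.5, above both control arrays.

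The 33 gene lists were then read side by side. Lists with almost no difference covered the basic machinery of the cell. All 82 cytosolic ribosomal protein genes had an interval within 1.5-fold, with a median of 0.03, and so had the 80 tested respiratory chain genes (median -0.03), the 48 genes of DNA replication and mitosis (-0.01) and the 22 genes of p53 and apoptosis (-0.02). Muscle (median 0.02, 37 of 38 within) and the nervous system (0.04, 42 of 44) were close behind. Over all tested genes 88.5% had such an interval, and among probes the share was 94.7% in the brightest group. The part of the signal level in these counts was not tested. The heat shock and ER stress genes had a median of 0.06 with none at an unadjusted p under 0.05. The members of these lists with the lowest p included mad2l1 (-0.13), a checkpoint protein of mitosis, rpl14 (0.10), a ribosomal protein, atp5pf (0.14), an ATP synthase subunit, casp8 (-0.20), an initiator caspase, and elavl3 (0.33), an RNA-binding protein of neurons.

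**Figure D3:**
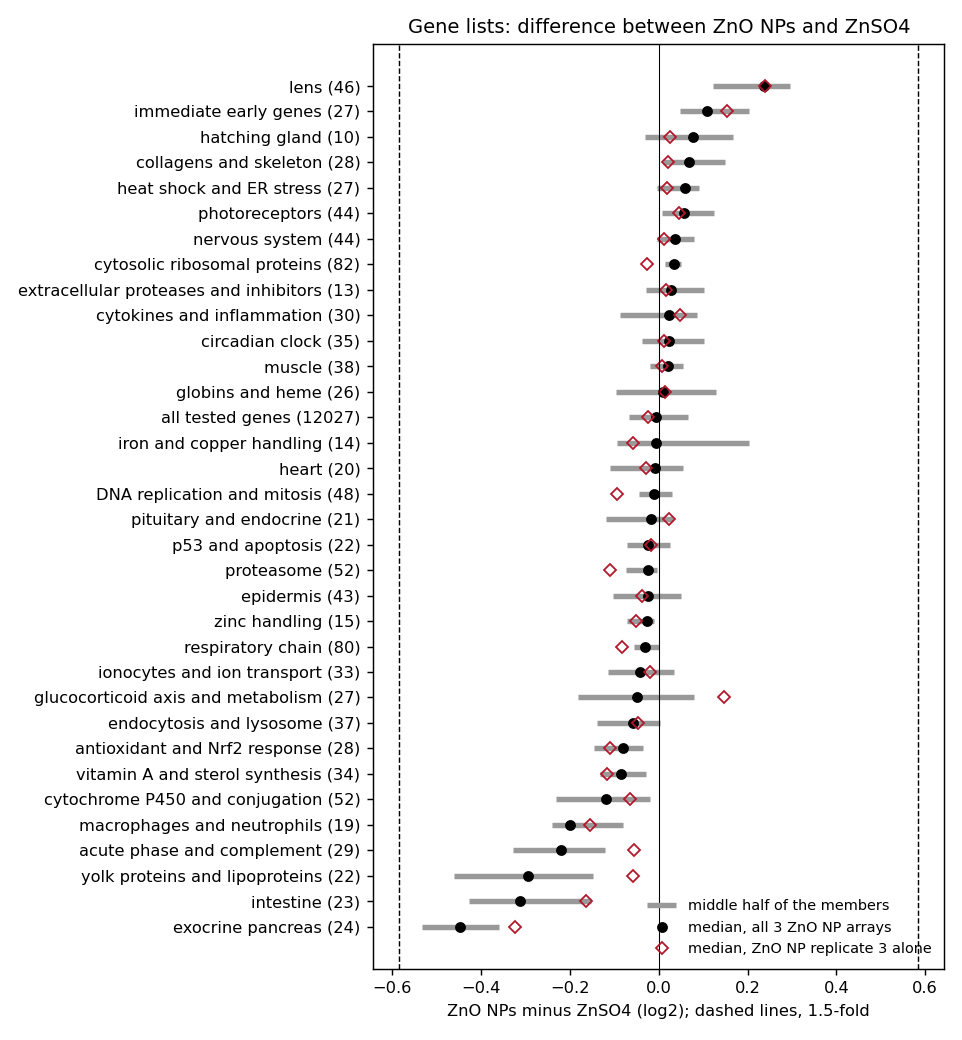
Median difference between ZnO NPs and ZnSO4 (log2) of each gene list (black points), with the number of tested members in parentheses, the span from the 25th to the 75th percentile of the members (bars) and the median with ZnO NP replicate 3 alone (diamonds). The exocrine pancreas and intestine lie farthest to the lower side and the lens farthest to the higher side, while the ribosomal, respiratory chain and replication lists are tight around 0.

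The farthest list was that of the exocrine pancreas, the gland that makes digestive enzymes. All 24 tested members were lower in ZnO NPs, with a median of -0.45 against -0.01 over all tested genes. In 11 of them the groups did not overlap, against 6.77% of all tested genes on the lower side, but none had an unadjusted p under 0.05. Control replicates 1 and 2, which enter the estimate of spread, differed widely in these genes. The amylase gene amy2a read 11769, 5400.4 and 10286 in ZnO NPs, 14013, 12986 and 18332 in ZnSO4, and 6750.0 and 28370.5 in the control. The exposed groups did not overlap, and the control arrays lay far apart. Its difference was -0.78 (SE 0.52, unadjusted p = 0.172, limma).

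The elastase gene ela2l read 28529.5, 13218 and 23738 against 32064, 28724 and 32045, a difference of -0.57 (-1.63 to 0.48). The elastase gene cela1.3 had the lowest p of the list and read 32.4, 24.0 and 27.9 against 52.6, 37.3 and 44.9 (-0.67, unadjusted p = 0.109, limma). In ZnO NPs cela1.3 was well above background on 2 of 3 arrays. It entered the tested probes through ZnSO4 alone, where it was higher. It is counted among the members without overlap, and its p value and lack of overlap are only a description. Genes of this family are alike in sequence, and a probe may read several of them. The transcription factor gene ptf1a, which sets up the acinar cell, read 245, 215 and 207 against 234, 203 and 236, with a difference of -0.01 (-0.36 to 0.33). Whether the enzyme genes differ from ptf1a was not tested.

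The list was summarised per array as the median over its members of the log2 level, each taken relative to its own mean over the 6 exposed arrays. These levels were 0.06, -0.65 and -0.10 in ZnO NPs, 0.21, 0.08 and 0.35 in ZnSO4, and -0.70 and 0.80 in the control. The exposed groups did not overlap, and the control arrays lay outside both. ZnO NP replicate 2 was the lowest of the exposed arrays, and without it the median of the list was -0.24. It was -0.32 with ZnO NP replicate 3 alone against the ZnSO4 arrays, which lay on the same side of the slide.

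The intestine gave a similar picture. Of 23 tested members, 21 were lower in ZnO NPs, with a median of -0.31. In 6 of them, all lower, the groups did not overlap, against 6.77% of all tested genes, and none had an unadjusted p under 0.05. The levels per array were 0.03, -0.35 and -0.01 in ZnO NPs, 0.06, 0.06 and 0.32 in ZnSO4, and -0.58 and 0.31 in the control, and without ZnO NP replicate 2 the median was -0.16. The chitinase gene chia.5, with the lowest p, read 357, 314 and 344 against 453, 374 and 447 (-0.33, unadjusted p = 0.0867, limma). The meprin gene mep1a.2, which encodes a brush-border protease, read 61.3, 11.2 and 67.1 against 74.6, 80.6 and 112, and its difference of -1.29 rests on replicate 2. In ZnO NPs mep1a.2 was well above background on 2 of 3 arrays. It entered the tested probes through ZnSO4 alone, where it was higher, so its lack of overlap, counted above, is only a description. The fatty acid binding protein gene fabp2 of enterocytes read 37610.2, 27712 and 31829 against 38881, 36612 and 40359 (-0.26), with overlap.

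**Figure D4:**
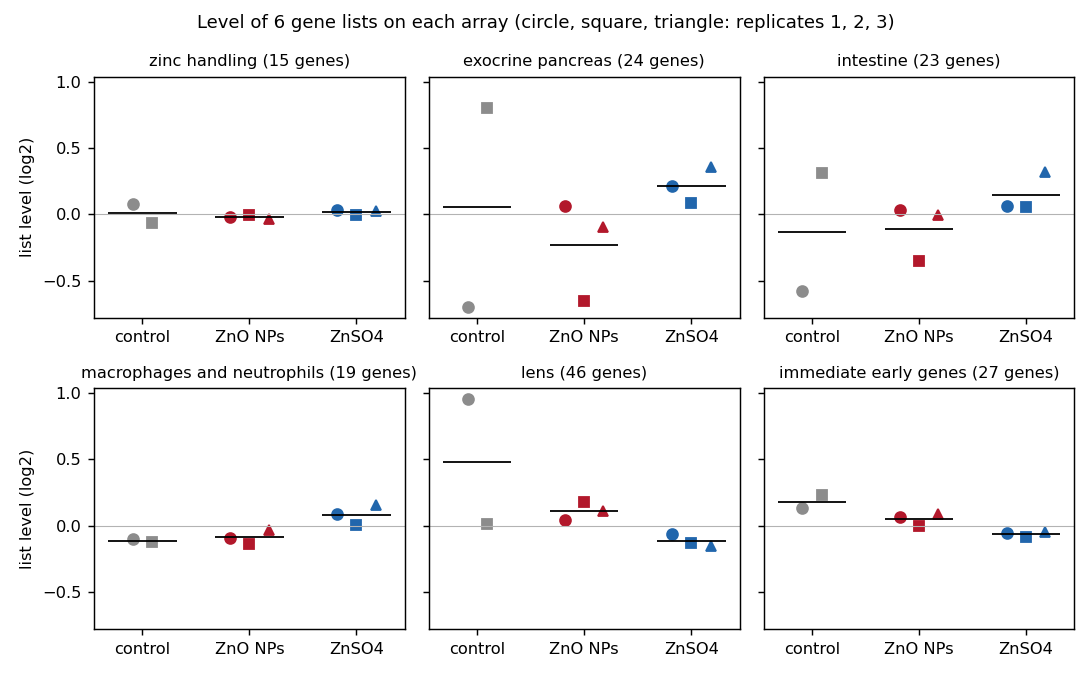
Level of 6 gene lists on each array (median over the members of the log2 level relative to the mean of the 6 exposed arrays) in the control, ZnO NPs and ZnSO4, with circle, square and triangle for replicates 1, 2 and 3 and lines for group means. In the exocrine pancreas, intestine, macrophage and neutrophil, lens and immediate early lists the ZnO NP and ZnSO4 arrays do not overlap, and in the pancreas list the 2 control arrays lie at -0.70 and 0.80.

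Genes of neutrophils and macrophages, the phagocytes of the innate immune system, were lower in ZnO NPs than in ZnSO4 for 15 of 19 tested members, with a median of -0.20. Of these, 6 had an unadjusted p under 0.05, all on the lower side, against 1.81% of all tested genes. The levels of the list per array were -0.09, -0.14 and -0.03 in ZnO NPs, 0.09, 0.00 and 0.15 in ZnSO4, and -0.10 and -0.13 in the control, so the ZnO NP arrays were close to the control and the ZnSO4 arrays above both. The control spread of this list level was small, unlike that of the digestive lists, but single members varied more between the control arrays.

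The neutrophil genes npsn, mpx and lyz had the largest differences of the list. The metalloprotease gene npsn (nephrosin) read 887, 649 and 859 in ZnO NPs, 1017, 1133 and 1257 in ZnSO4 and 881 and 687 in the control, with a difference of -0.52 (SE 0.15, unadjusted p = 0.0108, limma). The groups did not overlap. Other probes of npsn gave -0.32 and -0.69. The myeloperoxidase gene mpx read 348, 299.6 and 381 against 425, 457 and 552, also without overlap (-0.48, unadjusted p = 0.0132, limma). Its control arrays read 283 and 215, and ZnO NPs lay 0.47 above them. The lysozyme gene lyz read 4464, 3552 and 4630.4 against 5715, 4983 and 5907, with 4474 and 3437 in the control (-0.40, unadjusted p = 0.0236, limma). The NADPH oxidase subunit genes ncf1 (-0.35) and cyba (-0.24) and the actin-bundling gene lcp1 (-0.23) were the other 3 with an unadjusted p under 0.05. Of these 3, ncf1 overlapped between the groups, and cyba and lcp1 did not. A further oxidase subunit gene, cybb (0.05), was higher in ZnO NPs, and rac2 (-0.09) was lower, both with overlap. Of the macrophage genes, mpeg1.1 lay at the list median of -0.20 without overlap, while mfap4.1 (0.03) and csf1ra (0.04) overlapped. Further members were slc7a7 (-0.24), cd74b (-0.20) and havcr1 (-0.12), with overlap, and 4 members of the list were higher. Whether neutrophil genes differ from macrophage genes was not tested.

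Plasma proteins made by the liver were lower as well. Of 29 tested acute phase and complement genes, 26 were lower in ZnO NPs, with a median of -0.22, and 4 of these and 1 of the higher genes had an unadjusted p under 0.05, against 1.81% of all tested genes on the lower side and 4.22% in either direction. Complement factor B (cfb), part of the alternative pathway, read 3296, 4508 and 4744 in ZnO NPs, 6328, 5539.9 and 8382 in ZnSO4 and 4292 and 4836 in the control. The groups did not overlap, and the ZnO NP arrays lay around the control. The difference was -0.69 (SE 0.19, unadjusted p = 0.00705, limma), and a second probe of cfb gave -0.62 (unadjusted p = 0.0108, limma). The central complement gene c3a.1 read 10717, 16482 and 17021 against 18228, 18142 and 22873 (-0.44), whereas the related c3b.1 was 0.49 higher. Without ZnO NP replicate 1, the lowest array of this list, the median was -0.12, and with ZnO NP replicate 3 alone against ZnSO4 it was -0.06.

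The yolk protein and lipoprotein genes had a median of -0.30 with 18 of 22 lower, and their groups did not overlap in 9, against 6.77% of all tested genes on the lower side. This value rests on ZnO NP replicate 1, which read -0.53 for the list while replicates 2 and 3 read 0.06 and 0.08 and the ZnSO4 arrays 0.07, 0.18 and 0.13, and without it the median was -0.04. With replicate 3 alone it was -0.06. The lipoprotein receptor gene scarb1 was the member with an unadjusted p under 0.05. It read 735, 512 and 657 against 838, 837 and 916 (-0.46, unadjusted p = 0.0122, limma).

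The lens was the main list on the higher side. Of 46 tested members, 45 were higher in ZnO NPs, and the median was 0.24. In this list the groups did not overlap in 27, against 7.10% of all tested genes. There were 3 with an unadjusted p under 0.05 (6.52%), all higher, while the share of all tested genes in either direction was 4.22%. Of these 3, gja8b entered the tested probes through ZnO NPs alone, where it was higher. The 2 shares also differ in the directions they count, so they cannot decide whether the lens list has more such members. The per-array levels were 0.04, 0.18 and 0.11 in ZnO NPs, -0.06, -0.13 and -0.15 in ZnSO4, and 0.95 and 0.02 in the control. The median difference from the control was -0.32 for ZnO NPs and -0.58 for ZnSO4, which share the 2 control arrays, and control replicate 1 stood far above the rest. With ZnO NP replicate 3 alone against ZnSO4 the median was again 0.24.

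Within the lens list, membrane channel genes had the lowest p values. The connexin gene gja8b, which joins lens fiber cells, read 30.2, 28.2 and 27.7 in ZnO NPs, 21.5, 22.8 and 16.4 in ZnSO4, and 45.9 and 36.4 in the control (0.52, unadjusted p = 0.00725, limma). In ZnSO4 it was well above background on 1 of 3 arrays. It entered the tested probes through ZnO NPs alone, where it was higher. Its p value and lack of overlap are only a description. The aquaporin gene mipa read 1972, 2134 and 2427 against 1615, 1504 and 1771 (0.42, unadjusted p = 0.0435, limma). The groups did not overlap for either. Of the crystallin genes, which encode the transparent proteins of the lens, crybb1 read 53972, 64841 and 61179 against 47077, 50589.5 and 46811 (0.31), without overlap, and cryaa read 2243, 2153 and 2359.6 against 2155, 1868 and 1951 (0.18), with overlap. The many crygm2d genes are near-identical copies, so their probes are not independent readings.

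Other genes of the eye differed less. The 44 tested photoreceptor genes had a median of 0.06, and 34 were higher in ZnO NPs, the direction of the lens list. In 11 the groups did not overlap on the higher side, against 7.10% of all tested genes. On the lower side they did not overlap in 2, against 6.77%. The interval lay within 1.5-fold for 40 of the 44, close to the 88.5% of all tested genes. Rhodopsin (rho) read 212681, 200866 and 216906 against 210764, 194835 and 205876, with overlap (0.04). The retinal guanylate cyclase gene gucy2d read 1406, 1495 and 1411 against 1299.5, 1239 and 1229, without overlap but only 1.14-fold apart (0.19, unadjusted p = 0.0125, limma).

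Immediate early genes, many of them transcription factors, which are induced soon after a stimulus, were higher in ZnO NPs for 25 of 27 tested members, with a median of 0.11, and the groups did not overlap in 11, against 7.10% of all tested genes on the higher side. The AP-1 gene fosab read 1595, 1608 and 1774 in ZnO NPs, 1166, 1091 and 1105 in ZnSO4, and 3328 and 8013 in the control. Each exposed group was tight and below the control, and the difference was 0.57 (-0.08 to 1.21, unadjusted p = 0.0767, limma). The neuronal activity gene npas4a read 681, 678 and 752 against 512, 531 and 575, with 1743 and 4957 in the control. The nuclear receptor gene nr4a2b had the lowest p and read 634, 757 and 599 against 564, 559 and 503 (0.29, unadjusted p = 0.0224, limma).

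Collagens and skeletal genes had a median of 0.07, with 22 of 28 higher in ZnO NPs and 4 of these at an unadjusted p under 0.05, against 4.22% of all tested genes in either direction. The cartilage collagen gene col2a1a read 165331, 180039 and 147081 in ZnO NPs, 144396, 141390.0 and 117063 in ZnSO4, and 137818 and 139021 in the control (0.29, unadjusted p = 0.0281, limma). The groups did not overlap, although ZnO NP replicate 3 was close to ZnSO4 replicate 1, and with replicate 3 alone the median of the list was 0.02. The collagen chaperone gene serpinh1a, counted with the heat shock genes, read 324, 296 and 216 against 210.4, 251 and 133 (0.52), with overlap.

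Antioxidant and detoxification genes were lower in ZnO NPs by small amounts. Of 28 antioxidant genes tested, 23 were lower, with a median of -0.08, and 4 of these had an unadjusted p under 0.05, against 1.81% of all tested genes on the lower side. The interval lay within 1.5-fold for 25 of the 28 (89.3%), close to the 88.5% of all tested genes. The quinone reductase gene nqo1, a target of the oxidant sensor Nrf2, read 4252, 4616 and 5098 in ZnO NPs, 5748, 5462 and 6222 in ZnSO4, and 5032 and 4743 in the control (-0.32, unadjusted p = 0.00711, limma). The lipid peroxide reductase gene gpx4a read 40932, 52509 and 50372 against 59201, 60008 and 64654, with 76471 and 69340.4 in the control (-0.36, unadjusted p = 0.0097, limma). Neither overlapped. The heme oxygenase gene hmox1a read 1842, 2162 and 2490.3 against 2098, 1992 and 2622, with overlap (-0.05).

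Cytochrome P450 and conjugation genes, which modify foreign compounds, had a median of -0.12 with 42 of 52 lower. The glutathione transferase gene gsta.2 had the largest value and read 53.2, 59.5 and 54.5 in ZnO NPs, 99.9, 73.4 and 140.3 in ZnSO4, and 41.0 and 64.9 in the control (-0.86, unadjusted p = 0.00973, limma). Its groups did not overlap, and the ZnO NP arrays were at the control level. The P450 gene cyp1a overlapped (-0.10). The median of this list was -0.04 without ZnO NP replicate 2.

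Lysosomal and endocytic genes, which handle particles taken up by cells, had a median of -0.06. Of 37 tested, 27 were lower, and 5 had an unadjusted p under 0.05, all lower, against 1.81% of all tested genes. The cathepsin gene ctsh read 1821, 2046 and 1908 in ZnO NPs and 2312, 2564 and 2998 in ZnSO4 (-0.44, unadjusted p = 0.00291, limma), and ctss2.2 read 497, 465 and 543 against 668, 654 and 979 (-0.59, unadjusted p = 0.00715, limma). Both are proteases of the lysosome, and neither overlapped. A further cathepsin gene, ctsl.1, belonged to the hatching gland list, of which 7 of 10 tested members were higher in ZnO NPs, and read 4058, 3370.4 and 3634 against 4833, 4367 and 6845 (-0.51, unadjusted p = 0.0271, limma).

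Vitamin A and sterol synthesis genes had a median of -0.09 with 27 of 34 lower. Among iron and copper genes the median was -0.01, and the members pointed both ways. The transferrin receptor gene tfr2, which senses iron load, read 34.4, 29.4 and 34.9 in ZnO NPs, and 23.1, 21.4 and 19.5 in ZnSO4 (0.63, unadjusted p = 0.0028, limma). In ZnSO4 it was well above background on 2 of 3 arrays. It entered the tested probes through ZnO NPs alone, where it was higher, so its p value is only a description. The gene lay 0.66 above the control in ZnO NPs and 0.03 in ZnSO4. The copper-carrying plasma protein gene cp (ceruloplasmin) read 7347, 11398 and 11381 against 11975, 13322 and 14663 (-0.43, unadjusted p = 0.0467, limma). Neither overlapped.

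In the remaining lists the median lay between -0.05 and 0.08. That of the glucocorticoid list was -0.05 over all arrays and 0.15 with ZnO NP replicate 3 alone. Their members with the lowest p were irf1b (-0.39), an interferon regulatory factor, psme2 (-0.35), a proteasome activator, kcnj1a.1 (-0.21), a potassium channel, and esr2b (-0.30), an estrogen receptor, on the lower side. A second probe gave only -0.11 for irf1b, and -0.35 for kcnj1a.1 and -0.27 for esr2b. On the higher side were epor (0.33), the erythropoietin receptor, per1a (0.25), a clock gene, and ddit4 (0.35), a stress-induced inhibitor of growth signaling. Also higher were tbx20 (0.45), a cardiac transcription factor, and adamts15a (0.35), an extracellular protease. The tbx20 probe was well above background on 1 of 3 ZnSO4 arrays and entered the tested probes through ZnO NPs alone. The erythroid transcription factor gene klf1 read 40.8, 41.1 and 42.1 in ZnO NPs but 175, 165 and 39.1 in ZnSO4, so its difference of -1.34 rests on ZnSO4 replicates 1 and 2. The heme synthesis gene ppox was likewise high in these 2 arrays, at 75.5 and 106, and not in replicate 3, at 41.9.

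Single genes were then ranked. A gene was required to be well above background on all 6 arrays, without overlap, past 1.5-fold and past the unadjusted p. Of the 12027 tested genes, 11 were then higher in ZnO NPs and 21 lower. These counts take any probe of a gene, so a gene with several probes had more chances to pass. On that basis 69 genes passed the fold and the p irrespective of overlap and detection. With each gene read only by its brightest probe, 12 genes (0.0998%) passed both on the higher side and 25 (0.208%) on the lower. Those shares are therefore not on the same basis as the 11 and 21. The 21 lower genes lay at a median of -0.05 from the control in ZnO NPs and 0.70 in ZnSO4. The 11 higher genes lay at 0.50 in ZnO NPs and -0.14 in ZnSO4. Both comparisons share the control arrays, and the genes were chosen on the difference of the exposed groups.

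The largest lower value was that of zgc:153932, a protein-coding gene without an assigned name. Its arrays read 274, 256 and 296 in ZnO NPs, 530.3, 655 and 1247 in ZnSO4, and 246 and 329 in the control. The ZnO NP arrays lay within the range of the control, and the lowest ZnSO4 array was above all the others. The difference was -1.46 (SE 0.29, unadjusted p = 0.0013, limma), and a second probe gave -1.33 (unadjusted p = 0.00409, limma).

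The galectin-3 binding protein gene lgals3bp.2, a secreted glycoprotein, was different in that ZnSO4 and not ZnO NPs lay at the control level. It read 110.5, 92.3 and 142 in ZnO NPs, 214, 231 and 216 in ZnSO4, and 273 and 205 in the control (-0.96, SE 0.17, unadjusted p = 0.000562, limma). A second probe gave -0.84, and the third, far brighter, gave -0.19 with overlap (759, 659 and 796 against 913, 838 and 775). The 3 probes of this gene therefore disagree in size.

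Together with cfb, these were among the 4 genes with at least 2 probes past the fold and the unadjusted p. The remaining one was si:ch211-266a5.12, also without an assigned name. Its brighter probe gave -0.68 without overlap, and its other probe, which was well above background on 1 of the ZnO NP arrays, gave -1.48. This other probe entered the tested probes through ZnSO4 alone, where it was higher.

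Of the others among the 10 with the largest lower values, shisa2a, which retains Wnt and FGF receptors in the cell in frogs, read 40.6, 56.0 and 51.8 against 57.7, 147 and 139 (-1.11), while its other probe gave -0.20. The adenylate kinase gene ak7b of motile cilia read 58.2, 54.6 and 38.5 against 175, 112 and 61.4 (-1.10), with -0.05 at its other probe. The gene zgc:153631 (-1.08) also had another probe near 0, at -0.02. The phosphodiesterase gene pde8a, which breaks down cyclic AMP, gave -0.75, but 0.04 and 0.16 at its other probes. The genes ssuh2.4 (-1.03), si:ch1073-464p5.2 (-0.96) and plekhs1.2 (-0.87) were measured by 1 probe. For ssuh2.4 and plekhs1.2, ZnSO4 replicate 3 stood above the other ZnSO4 arrays, at 158 against 59.0 and 62.2 and at 245 against 127 and 119.5.

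Higher values in ZnO NPs were smaller. The microtubule end-binding protein gene mapre3a read 49.3, 75.9 and 108 in ZnO NPs, 47.1, 38.3 and 37.3 in ZnSO4, and 27.9 and 47.3 in the control (0.86, SE 0.30, unadjusted p = 0.0231, limma). The ubiquitin ligase gene fbxo30a read 38.1, 55.5 and 87.9 against 33.0, 33.2 and 34.0 (0.77). In both, replicate 3 was the highest and replicate 1 was close to the ZnSO4 arrays, and each was measured by 1 probe. The gene zgc:110286 (0.66) gave 0.58 and 0.16 at its other probes.

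The matrix protein gene spon1b read 90.4, 92.4 and 70.5 in ZnO NPs against 49.8, 62.5 and 49.3 (0.65), with 0.05 and -0.04 at its other probes, and the Polycomb partner gene rybpb read 135, 88.9 and 133 against 79.7, 81.8 and 65.3 (0.64), with 0.08 at its other probe. The muscle calcium release channel gene ryr1b read 59.6, 102 and 66.2 against 48.2, 52.5 and 42.7 (0.63), and its other 5 probes were all higher in ZnO NPs, by 0.15 to 0.33. The muscle sodium channel gene scn4ab (0.61) was measured by 1 probe, as was lctlb (0.60), a lactase-like gene. The limb and kidney transcription factor gene lmx1bb (0.60) had other probes at 0 and 0.09, and grcc10 (0.60) at -0.10 and -0.45.

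Over all genes with a symbol, 69 had a probe past the unadjusted p and the fold. Of these, 38 had another tested probe, and in 3 all probes were past it.

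**Figure D5:**
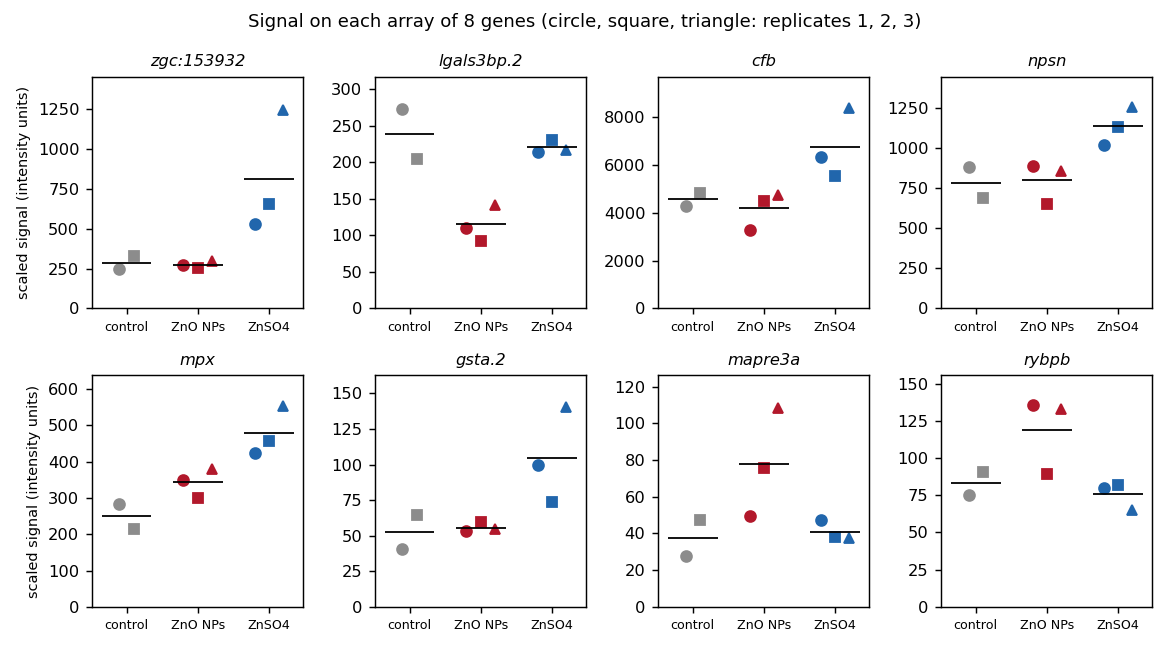
Signal on each array (linear scale with the 75th percentile of every array at 1160, axis starting at 0) for 8 genes in the control, ZnO NPs and ZnSO4, with circle, square and triangle for replicates 1, 2 and 3 and lines for group means. For zgc:153932, cfb and npsn the ZnO NP arrays lie near the control and all ZnSO4 arrays above them, and for lgals3bp.2 the ZnO NP arrays lie below the others.

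A probe could also be well above background in 1 group only, and it then entered the tested probes through the group where it was higher. There were 43 such probes on all 3 ZnO NP arrays and no ZnSO4 array, and 3 the other way, against 33190 on all 6 arrays. Because the dim group then has only a bound, folds are lower bounds against the lowest signal that was well above background. The largest such bound for a higher level in ZnO NPs was 2.51-fold, at a probe without a symbol. With symbols, osbpl6, a sterol binding protein gene, read 32.7, 58.3 and 35.7 against 23.0, 17.8 and 21.6, higher by at least 1.88-fold in ZnO NPs. The genes pid1, which modulates insulin signaling, and arhgef2a, a regulator of RhoA, were at least 1.74-fold and 1.67-fold higher. The lectin gene itln2 of the epidermis list was not well above background in ZnO NPs, at 5.42, 18.1 and 16.9, and read 34.9, 36.3 and 27.5 in ZnSO4 and 56.2 and 46.7 in the control. By such a bound it was at least 1.84-fold lower in ZnO NPs, and no test is given for it.

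When the slide side was added as a block, 25 probes (23 higher, 2 lower) were called at an adjusted p under 0.05 and a fold of at least 1.5. In such a fit the exposed groups meet on 1 side only, and the values rest on ZnO NP replicate 3 alone. The gene si:ch73-103b9.2 read 65.9, 48.0 and 357 in ZnO NPs and 27.7, 36.9 and 48.3 in ZnSO4, and lamp2, a lysosomal membrane protein gene, read 54.3, 54.9 and 239 against 52.4, 68.4 and 59.3. In both genes replicate 3 was far above all other arrays, and the other probes of lamp2 gave -0.03, 0.03, -0.10 and -0.07.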

How the data were processed

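RNA of whole larvae was hybridized to 1-color Agilent arrays. The deposited files hold Feature Extraction output (version 10.10.1.1 per the file headers, which differs from the version and array format in the methods), and the authors' intensity used here is the background-subtracted, detrended processed signal. A deposited table of log2 values from the authors, shifted to the 75th percentile and centred per probe, served as an alternative.

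Control spots and outlier spots were left out, log2 signals were set relative to their 75th percentile on that array, and spots of a probe were averaged. limma 3.58.1 in R 4.3.3 fitted the 3 groups together (5 residual and 2.50 prior degrees of freedom) with Benjamini-Hochberg adjustment over 34132 probes. By the methods each treatment was run in triplicate, and p values measure the spread between these pools. Probes were named through RefSeq accessions (25854 probes with 1 symbol, assembly GRCz12tu). A gene in a list is read by its brightest probe, and list counts compare with 12027 genes.

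Genes named are the 10 with the largest difference in each direction past the criteria in the text, genes with at least 2 such probes, the member of each list with the lowest p, mt2 and probes called under an alternative. The result for 1 such gene is not reported here. Further members were named as examples after their values were seen. The gene lists and all choices were made with earlier results of these data known. The scripts were tested on simulated data.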

Additional observations from a re-analysis of the deposited data

How the results depend on the processing

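No probe was called under quantile normalization, a median shift, normexp, no filter, a filter on all 6 arrays, outlier spots kept, the 6 exposed arrays alone, the authors' values, the replicate block or an F test adjusted over probes (0 and 0). With slide side as a block 23 were called higher and 2 lower, and with the ZnO NP array on the ZnSO4 side alone 71 and 2. Leaving out 1 array gave 0 to 1 called in either direction. Without ZnO NP replicate 1 it was a probe without a symbol (2.70, adjusted p = 0.0104, limma), and without ZnSO4 replicate 3 another (-4.03, adjusted p = 0.0466, limma). Neither probe was among the 34132 tested in the main setting, so both were called only after leaving out an array made them testable.

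The counts past 1.5-fold and an unadjusted p of 0.05 were 90 higher and 89 lower in the main setting. They were 61 and 118 after quantile normalization, 78 and 118 after a median shift, 6 and 20 with normexp, 293 and 176 without the filter, 43 and 60 with probes well above background on all 6 arrays, 374 and 170 with the side block, 640 and 158 with the same side alone, 1335 and 610 with no fold threshold, 13 and 22 at 2-fold, 25 and 30 with ANOVA and LSD, and 21 and 20 with Tukey. Leaving out 1 array gave 67 (without ZnSO4 replicate 3) to 257 (without ZnO NP replicate 3) higher, with 199 without ZnO NP replicate 1 and 156 without ZnSO4 replicate 2, and 98 to 166 lower, with 152, 166 and 162 without ZnSO4 replicates 1, 2 and 3. The share of higher probes was 50.3% in the main setting, 34.1% after quantile normalization, 39.8% after a median shift and 23.1% with normexp, with which the median of all probes was 0.05 against 0.01. The causes were not tested.

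Deviations of same-numbered arrays of the 2 groups correlated at 0.07, 0.08 and 0.17, and those of different-numbered arrays at -0.21 to 0.14. With 3 arrays in a group, these values cannot decide whether replicate numbers pair the samples. With the replicate block the counts were 106 and 128.

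Of 1620 values of named probes under alternatives, 1553 kept direction and side of the threshold, 47 became stronger and 20 reversed. No probe was called in the main setting, so keeping the side of the threshold means staying uncalled. The named probes include those chosen because an alternative called them. The 47 therefore follow largely from that choice, and the counts do not measure how stable the differences are. The mt2 probes read 0.30, 0.38 and 0.32 with the side block or the same side alone, and leaving out 1 array gave -0.33 to 0.078, -0.54 to 0.054 and -0.36 to 0.073, lowest without ZnO NP replicate 3 and highest without replicate 1. With normexp esr2b read 0.0053, slc30a1b 0.00031, A_15_P144736 0.0495 and atp10d 0.24. Leaving out 1 array gave -0.17 to 0.47 for cbx7a, -0.11 to 0.53 for A_15_P144316, -0.20 to 0.68 for hspa1b, -0.053 to 0.59 for got1l1, -0.13 to 0.94 for lamp2 -0.16 to 1.53 for A_15_P268741 and -0.87 to 0.032 for A_15_P144736. In these probes the sign turned without ZnO NP replicate 3. The median of the macrophage and neutrophil list was -0.10 with normexp, and those of the lens and immediate early lists stayed at 0.21 to 0.27 and 0.09 to 0.15. In the dimmest group of probes 60.1% had an interval within 1.5-fold, against 94.7% in the brightest. The part of the signal level in this was not tested.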

Other observations

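Several probes were high on ZnO NP replicate 3 alone while other probes of the same gene were not. With slide side as a block the difference was 2.74 for srgap2, which shapes the cell membrane, and 1.80 for plxnd1, a semaphorin receptor. Over all arrays, another probe of srgap2 gave 0.01, and those of plxnd1 gave 0.06 and 0.11. The adaptor gene grb10a stood at 1.97, with 0.17 at its other probe, and si:ch73-103b9.2 at 3.28, with -0.11 at its other probe.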
